A study of Mus musculus with 20 samples.

Results

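Integrins and laminins hold muscle fibres and the cells around them to their matrix. The genes followed here were every integrin alpha or beta chain and every laminin chain that the array's annotation gives as the only symbol of a probe set, chosen by symbol alone and not by their values: *Itga* or *Itgb* with a number or one of the letters d, e, l, m, v and x, and *Lama*, *Lamb* or *Lamc* with a digit. There were 34 such genes among the 19505 genes measured, each with 1 probe set. *Itga1* and *Itga10* were not analysed here. The 34 genes were 3 laminin-binding, 2 collagen-binding and 4 RGD-binding integrin alpha chains, *Itga4* and *Itga9*, 5 leukocyte alpha chains, 8 beta chains, 5 laminin alpha, 3 laminin beta and 2 laminin gamma chains.

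Messenger RNA was measured on 20 arrays of whole plantaris muscle from female mice aged 5 months, all of the genotype Pax7CreER/+; Rosa26DTA/+. In this line tamoxifen turns on diphtheria toxin A in cells that express *Pax7*, the transcription factor of satellite cells, which are the stem cells of muscle fibres. Tamoxifen-treated mice are called satellite cell-depleted (SC-) and vehicle-treated mice satellite cell-replete (SC+). Each treatment had a sham surgery group and groups of mechanical overload (MOV, surgical removal of the soleus and of part of the gastrocnemius, the synergists of the plantaris) for 1, 3, 5 and 7 days. Each of the 10 groups had 2 arrays, each of RNA pooled from several mice, so the spread between them is between pools. No group had tamoxifen with its satellite cells kept, or a genotype without Cre or DTA, so depletion and tamoxifen cannot be told apart in any SC- against SC+ value.

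Every level below is a log2 value as deposited, and 1 unit is a doubling on the deposited scale. Adjusted p values are those of limma's moderated test with Benjamini-Hochberg adjustment over all 19505 genes, and a gene is said to rise or fall against sham, or to be called, where it was under 0.05. Control probe sets for background had array medians of 5.15 to 5.72, and a gene whose mean over the 20 arrays was under 6 is called low here. Of the 34 genes 9 were low (*Itga8*, *Itgad*, *Itgae*, *Itgax*, *Itgb4*, *Itgb8*, *Lama1*, *Lama5* and *Lamb3*). *Pax7* itself lay between 3.77 and 5.22 on every array, under that line. Its level in SC- minus SC+ was -0.46 over all time points (adjusted p = 0.212), so *Pax7* gives a weak check of the depletion. Satellite cell markers were lower in SC- for 0, 5, 5 and 5 of 12 genes on days 1, 3, 5 and 7 and for 2 in sham, at an unadjusted p under 0.05. Of all genes 3.05%, 2.66%, 4.73% and 5.91% were lower on these days and 3.02% in sham. *Myf5*, one of the 12 markers, had SC- minus SC+ differences of -1.12 in sham and 0.27, -0.96, -1.69 and -1.62 on days 1, 3, 5 and 7. After adjustment it passed at day 7 only (adjusted p = 0.0317). *Calcr* passed without adjustment in sham only (-0.70), and both genes lay under 6 on every array. The log2 of the summed marker level overlapped between treatments on every MOV day, as at day 5 (10.94 to 11.30 in SC-, 11.08 to 11.09 in SC+). In sham it was lower in SC- (10.06 to 10.12 against 10.31 to 10.78). The sum is of linear values, so the genes with the highest levels weigh most. The list holds *Vcam1*, which rose with MOV in both treatments as given below. The overlap on MOV days therefore says little about the number of satellite cells. Myofibre markers (15 genes, *Acta1* and *Ckm* among them) had medians of 17.20 to 19.63, as muscle should have, and leukocyte, fibroblast and endothelial markers were also measured.

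Some arrays stood apart before any test. SC+ sham replicate 2 lay above replicate 1 for *Itgam* (8.39 against 6.05), *Itga5* (6.79 against 5.24), *Itga7* (9.73 against 8.67) and *Itgb1* (15.97 against 14.88), and also for the summed level of macrophage markers (14.72 against 11.66) and fibroblast markers (18.24 against 17.18). The 2 SC- day 1 arrays differed likewise in the sum of fibroblast markers (16.64 in replicate 1 and 18.07 in replicate 2) and in *Lamb1* (6.36 and 8.37). Each call of the 34 genes was therefore also made without each array of its comparison in turn, which was not done for the marker and pathway lists. Where a call is said to be lost, the value in parentheses is the log2 difference without that array. Where nothing is said, the call held in all of these refits.

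An integrin is a pair of an alpha and a beta chain that spans the cell membrane. The alpha chain largely sets the ligand: laminin, collagen, RGD sequences such as those of fibronectin and vitronectin, or proteins on other cells. The beta chain ties the pair to the actin cytoskeleton through talin, vinculin and filamin. Laminins are trimers of an alpha, a beta and a gamma chain in basement membranes, and the laminin with the *Lama2* chain is the main one around adult muscle fibres, where integrin alpha 7 beta 1 and dystroglycan bind it. Integrin alpha M beta 2 (Mac-1) is carried by neutrophils, monocytes and macrophages. In whole muscle a rise of such a gene can come from more cells or from more RNA per cell, and likewise fewer cells of a type and less RNA per cell cannot be told apart.

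The promoters below are shown because *Itgam*, *Itga5* and *Itgb1* rose on every day in both treatments, while *Itgb6* fell on every day in SC-. They are the 250 bases before the start that the RefSeq promoter table gives (GRCm38.p6), 5′ to 3′ on the gene's strand, at chr7:128062390-128062639 (+), chr15:103366792-103367041 (-), chr8:128685404-128685653 (+) and chr2:60722604-60722853 (-). None of these 4 windows reaches into the annotated span of its gene. Capitals mark matches on either strand to GAGGAA (a core bound by the myeloid factor PU.1) and GGGCGG (the GC box). The CArG box, the site of serum response factor, was also searched.
*Itgam*: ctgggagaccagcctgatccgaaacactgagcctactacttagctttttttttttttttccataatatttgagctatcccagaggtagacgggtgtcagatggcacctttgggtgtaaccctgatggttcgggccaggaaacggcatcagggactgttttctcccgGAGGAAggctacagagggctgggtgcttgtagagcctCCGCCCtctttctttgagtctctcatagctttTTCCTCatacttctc
*Itga5*: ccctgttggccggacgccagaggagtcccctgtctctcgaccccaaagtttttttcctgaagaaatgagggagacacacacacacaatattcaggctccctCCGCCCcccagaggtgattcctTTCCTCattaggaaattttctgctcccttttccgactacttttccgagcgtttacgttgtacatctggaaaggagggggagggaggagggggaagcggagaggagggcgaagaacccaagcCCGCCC
*Itgb1*: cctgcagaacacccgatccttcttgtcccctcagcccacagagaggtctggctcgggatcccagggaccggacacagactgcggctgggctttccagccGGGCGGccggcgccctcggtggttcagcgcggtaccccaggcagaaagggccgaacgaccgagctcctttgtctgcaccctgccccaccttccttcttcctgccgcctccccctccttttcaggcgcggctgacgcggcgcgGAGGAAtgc
*Itgb6*: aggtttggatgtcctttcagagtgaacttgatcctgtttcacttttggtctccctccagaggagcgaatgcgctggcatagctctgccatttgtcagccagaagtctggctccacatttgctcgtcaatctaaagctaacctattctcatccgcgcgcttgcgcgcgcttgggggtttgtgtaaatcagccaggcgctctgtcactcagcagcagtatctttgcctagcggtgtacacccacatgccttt
Of the 34 genes 21 had an entry, with 24 windows in all, of which 14 reached into the span of their gene because the table uses a start inside it. GAGGAA was in 13 of the 24 windows and in 23.3% of the 32851 windows of the table. GGGCGG was in 9 of the 24 and in 32.7% of all, and the CArG box in 2 of the 24 (that of *Lama2* and a second one of *Itgb6*, both reaching into the gene) and in 1.47% of all. No match overlapped one of another motif. Counted from the start, with negative positions before it, the GAGGAA matches of *Itgam* began at -84 and -15 and that of *Itgb1* at -9. The *Itgb6* window shown held none of the 3 motifs, but its second window held GAGGAA at -35. *Lama2* and *Lamb2* also fell on every day in SC-, and their windows held GAGGAA at -76 and -208. A match describes letters only, and binding was not measured.

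The share of these genes that rose with overload was above the share of all genes that rose, on each day and in both treatments. In SC- muscle 6, 10, 16 and 14 of the 34 genes rose on days 1, 3, 5 and 7 (adjusted p under 0.05), where 6.8%, 11.7%, 14.9% and 15% of all genes rose. In SC+ muscle 7, 10, 9 and 10 rose, where 8.7%, 12%, 11.4% and 10.5% of all genes rose. All of these rises were in the 25 genes that were not low. Of the 19505 genes 8158 were low, beside 9 of the 34. With low genes left out, 25.7% of all genes in SC- and 31.4% in SC+ were called in either direction at day 1. With them it was 14.4% and 17.7%, so the shares of all genes are not those of genes at like levels. Falls were fewer than rises among the 34 genes. In SC- muscle 3, 4, 4 and 4 genes fell (8.82%, 11.8%, 11.8% and 11.8%), beside 7.62%, 9.57%, 13% and 13.6% of all genes. In SC+ muscle 5, 2, 0 and 1 fell (14.7%, 5.88%, 0% and 2.94%), beside 9.03%, 9.52%, 7.87% and 7.59%. The share that fell was thus above that of all genes on days 1 and 3 in SC- and on day 1 in SC+. On the other days it was below.

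The median log2 fold change of the 34 genes was -0.02, 0.25, 0.61 and 0.35 in SC- on days 1, 3, 5 and 7, against all-gene medians of -0.01, -0.06, -0.10 and -0.09. In SC+ it was -0.08, 0.18, 0.16 and 0.26, against -0.03, -0.06, -0.10 and -0.07. The genes that passed on all 4 days in both treatments were *Itga5*, *Itgam*, *Itgb1*, *Itgb2* and *Lamc1*, and all 5 rose. At the other end 11 genes passed on no day in either treatment, 7 of them low (*Itga3*, *Itga8*, *Itgae*, *Itgax*, *Itgb5*, *Itgb7*, *Itgb8*, *Lama1*, *Lama5*, *Lamb3* and *Lamc3*), and their fold changes lay between -0.83 and 0.81. Without SC+ sham replicate 1, 5 of the 34 genes rose in SC+ at day 3, in place of 10, and 7 at day 7. Over all genes the counts of rises in that refit were 1527 and 1046, in place of 2334 and 2040, so calls were fewer over all genes as well. Without SC+ sham replicate 2 the counts were 10 and 9 of the 34, and 2369 and 2137 of all genes.

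**Figure D1:**
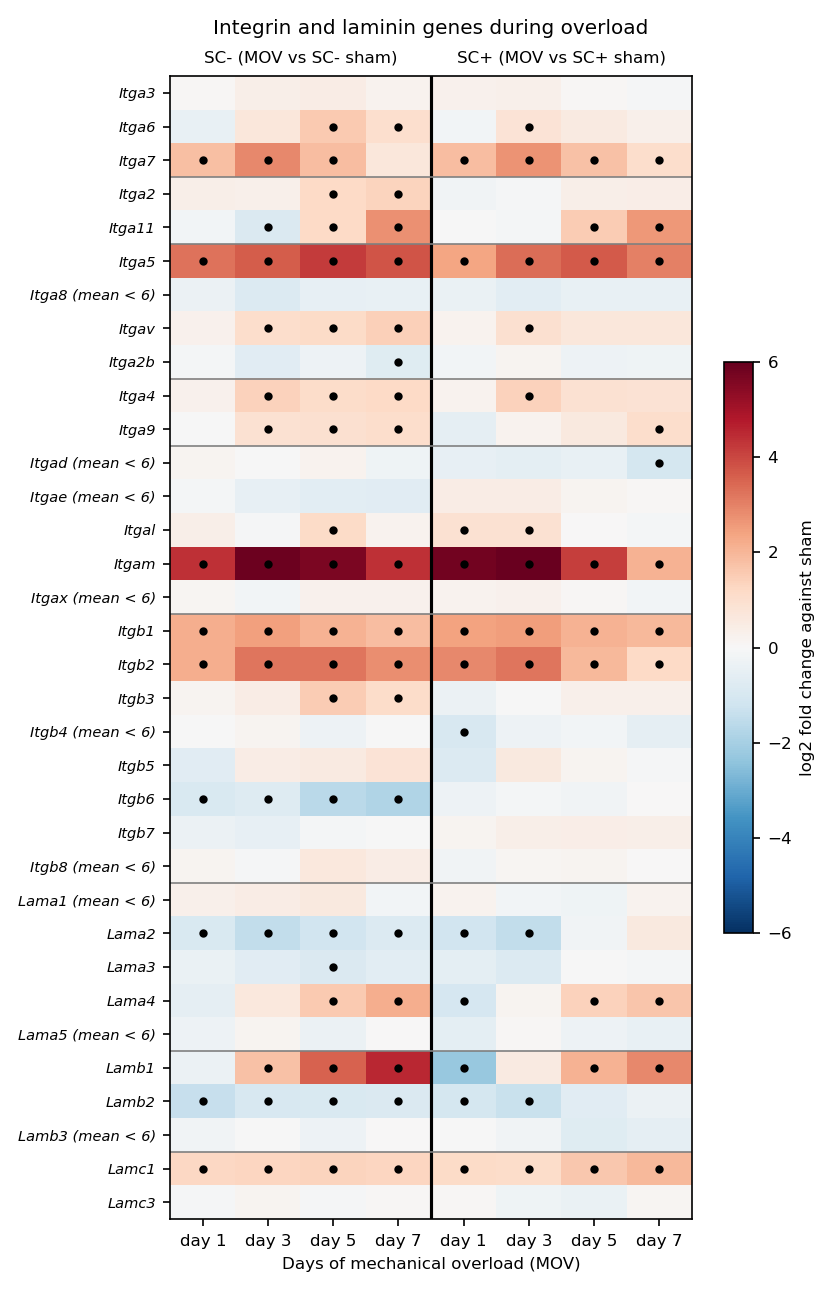
Log2 fold change of each of the 34 genes (rows, grouped by role) at each MOV day (columns) against the sham group of the same treatment, SC- on the left and SC+ on the right. Dots mark an adjusted p under 0.05, and the strongest colour is *Itgam*, with 5.87 in SC- and 5.92 in SC+ at day 3.

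*Itgam*, the alpha M chain of Mac-1, gave the largest rise among the 34 genes. *Itgam* in SC- muscle was at 7.15 and 7.19 in sham, 11.93 and 11.18 at day 1, 13.56 and 12.53 at day 3, 13.07 and 12.52 at day 5 and 11.72 and 11.40 at day 7. *Itgam* in SC+ muscle was at 6.05 and 8.39 in sham, 13.48 and 12.57 at day 1, 12.83 and 13.44 at day 3, 11.35 and 11.38 at day 5 and 8.93 and 9.71 at day 7. Every MOV array lay above both sham arrays of its treatment, although the SC+ sham pair itself lay far apart. The log2 fold change against sham was 4.39 ± 0.54, 5.87 ± 0.54, 5.63 ± 0.54 and 4.39 ± 0.54 (SE) in SC- on days 1, 3, 5 and 7, and 5.80 ± 0.59, 5.92 ± 0.59, 4.14 ± 0.59 and 2.10 ± 0.59 in SC+, with adjusted p between 7.0e-07 and 2.1e-05 in SC- and between 6.0e-05 and 0.0284 in SC+. In SC+ the day 7 call was lost without SC+ day 7 replicate 1 or 2 or SC+ sham replicate 1 (0.93 to 2.49), and without SC+ sham replicate 2 the value was 3.27.

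*Itgb2*, the beta chain that all 4 alpha chains L, M, X and D share, followed a like course. *Itgb2* in SC- muscle was at 3.97 and 4.95 in sham, 6.69 and 6.62 at day 1, 8.27 and 7.05 at day 3, 8.01 and 7.37 at day 5 and 7.41 and 7.11 at day 7. *Itgb2* in SC+ muscle was at 4.58 and 4.23 in sham, 7.53 and 7.09 at day 1, 7.50 and 7.72 at day 3, 6.03 and 6.71 at day 5 and 5.27 and 5.90 at day 7. The SC+ arrays of days 5 and 7 lay below those of days 1 and 3, while the SC- arrays of day 7 stayed above the SC- day 1 arrays. All sham arrays, at 3.97 to 4.95, lay under the background medians of 5.15 to 5.72. The fold change was 2.19 ± 0.39, 3.20 ± 0.39, 3.23 ± 0.39 and 2.79 ± 0.39 in SC- and 2.90 ± 0.30, 3.20 ± 0.30, 1.97 ± 0.30 and 1.18 ± 0.30 in SC+ (adjusted p from 5.2e-06 to 7.3e-04 and from 5.4e-05 to 0.0182). The SC+ day 7 call was lost without SC+ day 7 replicate 2 or SC+ sham replicate 2 (0.87 to 1.003).

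The other leukocyte chains were far less mobile. *Itgal*, the alpha chain of LFA-1 of lymphocytes and other leukocytes, was at 5.99 and 5.22 in sham, 6.42 and 5.53 at day 1, 5.61 and 5.47 at day 3, 7.03 and 6.44 at day 5 and 5.72 and 5.87 at day 7 in SC- muscle. *Itgal* in SC+ muscle was at 5.70 and 5.78 in sham, 6.33 and 6.99 at day 1, 6.69 and 6.64 at day 3, 5.68 and 5.87 at day 5 and 5.52 and 5.76 at day 7. It rose in SC- at day 5 (1.13 ± 0.31, adjusted p = 0.0106) and in SC+ at days 1 and 3 (0.92 ± 0.25 and 0.92 ± 0.25, adjusted p = 0.0241 and 0.0196). These calls were fragile: the SC- one was lost without SC- day 5 replicate 1 or SC- sham replicate 2 (0.74 to 0.83), and the SC+ ones without SC+ day 1 replicate 2 or SC+ sham replicate 1 or 2 (0.59 to 0.96) and without SC+ day 3 replicate 1 or 2 or SC+ sham replicate 1 (0.88 to 0.95). The summed level of 9 lymphocyte markers stayed between 8.18 and 8.97 on the log2 scale on all arrays. The median of these markers lay between 4.63 and 5.27, within or under the range of the background medians (5.15 to 5.72). A sum at that level could hardly show a change, so it says little about lymphocytes.

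*Itgax* (CD11c) and *Itgad* (CD11d) lie next to *Itgam* on chromosome 7 and were low. *Itgax* lay between 4.43 and 5.56 on all arrays. *Itgad* was at 4.88 and 5.28 in sham, 5.22 and 5.23 at day 1, 5.10 and 4.99 at day 3, 5.15 and 5.47 at day 5 and 4.74 and 4.93 at day 7 in SC- muscle. *Itgad* in SC+ muscle was at 6.64 and 5.42 in sham, 5.53 and 5.59 at day 1, 5.54 and 5.38 at day 3, 5.69 and 5.48 at day 5 and 4.93 and 4.98 at day 7. The single array at 6.64 was the only one over 6, and the SC+ day 7 call of *Itgad* (-1.07 ± 0.32, adjusted p = 0.039) was lost without SC+ day 7 replicate 1 or 2 or SC+ sham replicate 1 (-0.47 to -1.10) and was -1.68 without SC+ sham replicate 2. *Itgae*, the alpha E chain that pairs with beta 7 on intraepithelial T cells, was also low. It was at 5.27 and 5.82 in sham, 5.31 and 5.51 at day 1, 5.03 and 5.04 at day 3, 5.23 and 4.63 at day 5 and 5.24 and 4.46 at day 7 in SC- muscle and at 4.76 and 4.78 in sham, 5.23 and 5.22 at day 1, 5.77 and 4.67 at day 3, 4.91 and 4.94 at day 5 and 5.11 and 4.53 at day 7 in SC+ muscle, with no call against sham. Its partner *Itgb7*, which also pairs with alpha 4, had no call against sham.

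Marker genes of the cells that carry Mac-1 moved over the same days. The log2 of the summed level of 12 macrophage markers was 12.64 to 12.76 in sham, 14.18 to 14.96 at day 1, 17.13 to 17.63 at day 3, 17.67 to 17.82 at day 5 and 17.30 to 17.69 at day 7 in SC-. In SC+ it was 11.66 to 14.72 in sham, 14.64 to 15.95 at day 1, 17.43 to 17.59 at day 3, 16.39 to 16.95 at day 5 and 16.08 to 16.44 at day 7. Of the 12 markers 3, 11, 11 and 10 rose in SC- on days 1, 3, 5 and 7, and 2, 11, 11 and 10 in SC+. Neutrophil markers (7 genes, *S100a8* and *S100a9* among them) summed to 8.79 to 8.93 in sham, 13.06 to 13.54 at day 1, 13.10 to 13.32 at day 3, 12.21 to 12.28 at day 5 and 11.30 to 11.63 at day 7 in SC-. In SC+ they summed to 8.59 to 9.51 in sham, 14.67 to 14.81 at day 1, 12.39 to 12.98 at day 3, 11.21 to 11.62 at day 5 and 9.59 to 10.74 at day 7. Of these 6, 6, 6 and 4 rose in SC- and 6, 6, 4 and 1 in SC+. At day 1 most macrophage markers did not pass the threshold and most neutrophil markers did. The macrophage sum at day 1 nevertheless lay above sham on both SC- arrays, and in SC+ its range overlapped that of sham. The part of either list in the change of *Itgam* and *Itgb2* was not tested.

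**Figure D2:**
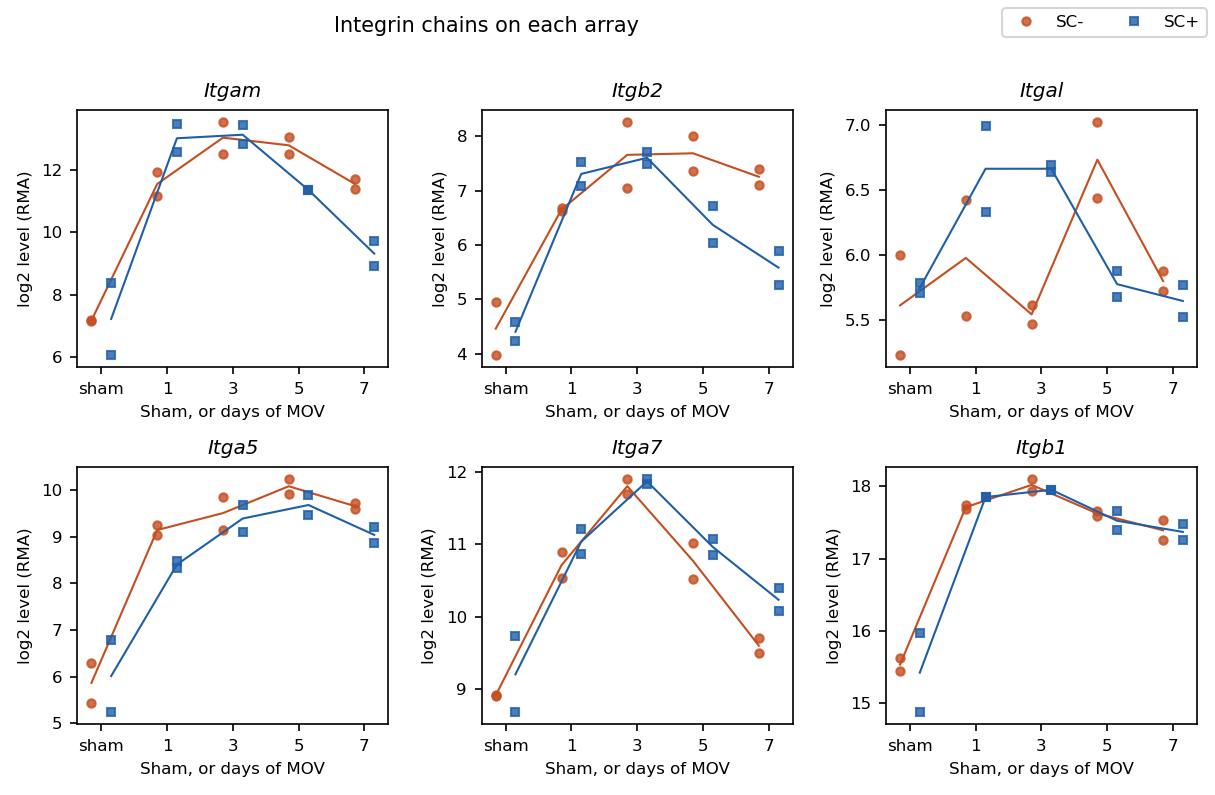
Log2 level (RMA) of 6 integrin chains on each array, in sham muscle and after 1, 3, 5 and 7 days of MOV. Circles are SC- pools and squares SC+ pools, with lines through the mean of each pair. *Itgam* at day 7 was at 11.72 and 11.40 in SC- and at 8.93 and 9.71 in SC+.

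Among RGD-binding chains *Itga5*, the alpha chain of the fibronectin receptor, rose most. In SC- muscle it was at 6.30 and 5.44 in sham, 9.25 and 9.03 at day 1, 9.85 and 9.15 at day 3, 10.24 and 9.91 at day 5 and 9.72 and 9.58 at day 7. *Itga5* in SC+ muscle was at 5.24 and 6.79 in sham, 8.32 and 8.48 at day 1, 9.67 and 9.10 at day 3, 9.46 and 9.89 at day 5 and 8.86 and 9.21 at day 7. All MOV arrays were above all sham arrays in both treatments, and at day 5 the SC- mean was 18.5 times that of SC- sham on the linear scale. The sham arrays, at 5.24 to 6.79, lay near the background medians of 5.15 to 5.72, so this ratio rests on a baseline near background. The log2 fold change was 3.27 ± 0.40, 3.63 ± 0.40, 4.21 ± 0.40 and 3.78 ± 0.40 in SC- and 2.39 ± 0.41, 3.37 ± 0.41, 3.66 ± 0.41 and 3.02 ± 0.41 in SC+ (adjusted p at most 1.9e-05 in SC- and 0.00193 in SC+). *Itgav*, the alpha chain of the vitronectin receptors, rose in SC- on days 3, 5 and 7 (1.04 ± 0.26, 1.16 ± 0.26 and 1.42 ± 0.26) and in SC+ on day 3 (0.97 ± 0.28). The SC- day 3 call was lost without SC- sham replicate 1 (0.85) and the SC+ one without SC+ day 3 replicate 2 or SC+ sham replicate 1 or 2 (0.73 to 0.97).

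*Itga2b*, which with *Itgb3* forms the platelet fibrinogen receptor, was at 8.61 and 8.49 in sham, 8.57 and 8.31 at day 1, 7.78 and 7.94 at day 3, 8.26 and 8.21 at day 5 and 8.14 and 7.51 at day 7 in SC- muscle. *Itga2b* in SC+ muscle was at 8.50 and 8.48 in sham, 8.23 and 8.45 at day 1, 8.88 and 8.39 at day 3, 8.18 and 8.17 at day 5 and 8.42 and 8.08 at day 7. It fell in SC- at day 7 (-0.73 ± 0.24, adjusted p = 0.0312), a call lost without SC- day 7 replicate 2 or SC- sham replicate 1 or 2 (-0.41 to -0.79). Its partner *Itgb3*, which also pairs with alpha V, went the other way and rose in SC- on days 5 and 7 (1.51 ± 0.26 and 1.10 ± 0.26, adjusted p = 2.2e-04 and 0.00323). The day 7 rise of *Itgb3* was lost without SC- sham replicate 2 (0.80). *Itga8*, an RGD receptor of smooth muscle and mesenchyme, was low and had no call.

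*Itga4* and *Itga9*, whose pairs bind VCAM-1 and either fibronectin or tenascin, rose later and less. *Itga4* rose in SC- on days 3, 5 and 7 (1.40 ± 0.35, 1.09 ± 0.35 and 1.18 ± 0.35) and in SC+ on day 3 (1.39 ± 0.34). Its SC- calls were lost on day 3 without SC- day 3 replicate 1 or SC- sham replicate 2 (1.19 to 1.21), on day 5 without SC- day 5 replicate 1 or SC- sham replicate 2 (0.72 to 0.88) and on day 7 without SC- day 7 replicate 1 or SC- sham replicate 2 (0.81 to 0.97), and its SC+ call without SC+ day 3 replicate 2 or SC+ sham replicate 1 (1.09 to 1.15). *Itga9* rose in SC- on days 3, 5 and 7 (0.91 ± 0.26, 0.94 ± 0.26 and 1.05 ± 0.26) and in SC+ on day 7 (1.06 ± 0.24). These were lost on day 3 without SC- day 3 replicate 1 or 2 or SC- sham replicate 1 or 2 (0.89 to 0.94), on day 5 without SC- day 5 replicate 1 (0.63) and in SC+ without SC+ day 7 replicate 1 or 2 or SC+ sham replicate 1 (0.96 to 1.09), while the SC- day 7 call of *Itga9* held.

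*Itgb1*, the beta chain shared by most matrix receptors, rose throughout. *Itgb1* in SC- muscle was at 15.45 and 15.63 in sham, 17.74 and 17.69 at day 1, 17.93 and 18.11 at day 3, 17.66 and 17.59 at day 5 and 17.25 and 17.53 at day 7. *Itgb1* in SC+ muscle was at 14.88 and 15.97 in sham, 17.85 and 17.86 at day 1, 17.96 and 17.95 at day 3, 17.39 and 17.66 at day 5 and 17.26 and 17.48 at day 7. The MOV arrays lay within 1 unit of each other on all days and treatments, and all were above the sham arrays. The fold change was 2.18 ± 0.27, 2.48 ± 0.27, 2.09 ± 0.27 and 1.86 ± 0.27 in SC- and 2.43 ± 0.31, 2.53 ± 0.31, 2.10 ± 0.31 and 1.95 ± 0.31 in SC+ (adjusted p at most 3.7e-05 and 0.00133).

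The laminin-binding chains did not move as one. *Itga7*, the alpha chain of the laminin receptor of muscle fibres, rose by 1.81 ± 0.29, 2.90 ± 0.29 and 1.86 ± 0.29 in SC- on days 1, 3 and 5, and had 0.69 ± 0.29 at day 7, which did not pass (adjusted p = 0.0898). In SC+ it rose by 1.84 ± 0.31, 2.68 ± 0.31, 1.77 ± 0.31 and 1.03 ± 0.31 on days 1, 3, 5 and 7. The highest values were those of day 3 in both treatments, 11.70 to 11.91. The SC+ day 7 call was lost without SC+ day 7 replicate 1 or 2 or SC+ sham replicate 1 (0.51 to 1.20), and was 1.56 without SC+ sham replicate 2. *Itga3* had no call.

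*Itga6*, which pairs with beta 1 or beta 4 and is found on endothelial and other cells, was at 9.89 and 10.21 in sham, 9.19 and 10.05 at day 1, 10.78 and 10.72 at day 3, 11.25 and 11.98 at day 5 and 11.11 and 11.04 at day 7 in SC- muscle. *Itga6* in SC+ muscle was at 9.83 and 10.27 in sham, 9.997 and 9.81 at day 1, 10.90 and 10.87 at day 3, 10.34 and 10.81 at day 5 and 10.52 and 10.23 at day 7. It rose in SC- on days 5 and 7 (1.57 ± 0.29 and 1.02 ± 0.29, adjusted p = 4.4e-04 and 0.013) and in SC+ on day 3 (0.84 ± 0.25, adjusted p = 0.0309). The SC- day 7 call was lost without SC- day 7 replicate 1 or SC- sham replicate 1 (0.86 to 0.98), and the SC+ call without SC+ day 3 replicate 1 or 2 or SC+ sham replicate 1 (0.62 to 0.85). *Itgb4*, its hemidesmosomal partner, was low, and its fall in SC+ on day 1 (-0.95 ± 0.28) was lost without SC+ day 1 replicate 1 or 2 or SC+ sham replicate 1 or 2 (-0.76 to -1.13).

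Of the collagen-binding chains, *Itga11*, a receptor of fibroblasts, rose late. In SC- muscle it was at 6.63 and 6.34 in sham, 6.15 and 6.54 at day 1, 5.80 and 5.44 at day 3, 7.73 and 7.67 at day 5 and 9.32 and 9.15 at day 7. *Itga11* in SC+ muscle was at 6.01 and 6.13 in sham, 5.76 and 6.35 at day 1, 6.07 and 5.87 at day 3, 7.21 and 7.97 at day 5 and 8.50 and 8.87 at day 7. Days 1 and 3 lay near or under sham, and days 5 and 7 lay above it in both treatments. Its log2 fold change at days 5 and 7 was 1.21 ± 0.28 and 2.75 ± 0.28 in SC- and 1.52 ± 0.29 and 2.62 ± 0.29 in SC+ (adjusted p = 0.00236 and 7.7e-07 in SC-, 0.00384 and 2.8e-04 in SC+), and it fell in SC- on day 3 (-0.87 ± 0.28). The fall was lost without SC- day 3 replicate 1 or 2 or SC- sham replicate 1 (-0.69 to -1.05), and the SC+ day 5 rise without SC+ day 5 replicate 2 (1.14). *Itga2*, the collagen receptor of platelets and epithelium, rose in SC- on days 5 and 7 (1.17 ± 0.39 and 1.33 ± 0.39), lost without SC- day 5 replicate 2 or SC- sham replicate 2 (0.61 to 0.92) and without SC- day 7 replicate 1 or SC- sham replicate 2 (0.77 to 0.86).

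Among the integrin beta chains *Itgb6*, which pairs with alpha V and is best known from epithelium, was the one chain that fell on all 4 days in SC-. *Itgb6* in SC- muscle was at 11.72 and 11.79 in sham, 10.83 and 10.84 at day 1, 11.10 and 10.89 at day 3, 10.24 and 10.02 at day 5 and 9.93 and 9.96 at day 7. *Itgb6* in SC+ muscle was at 11.57 and 10.86 in sham, 11.02 and 10.78 at day 1, 11.28 and 10.92 at day 3, 11.12 and 10.85 at day 5 and 11.14 and 11.33 at day 7. All 8 SC- MOV arrays were below the SC- sham pair, whereas the SC+ arrays of every day overlapped the SC+ sham pair. The fold change in SC- was -0.92 ± 0.24, -0.76 ± 0.24, -1.62 ± 0.24 and -1.81 ± 0.24 (adjusted p = 0.0145, 0.0317, 4.7e-05 and 1.4e-05), and in SC+ -0.31 ± 0.27, -0.11 ± 0.27, -0.23 ± 0.27 and 0.02 ± 0.27, none of which passed. The SC- calls were lost on day 1 without SC- day 1 replicate 1 or 2 or SC- sham replicate 1 or 2 (-0.88 to -0.96) and on day 3 without SC- day 3 replicate 1 or 2 or SC- sham replicate 1 or 2 (-0.65 to -0.86), and held on days 5 and 7.

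*Itgb5*, another partner of alpha V, was at 9.29 and 10.28 in sham, 9.01 and 9.18 at day 1, 10.53 and 9.97 at day 3, 10.28 and 10.35 at day 5 and 10.64 and 10.55 at day 7 in SC- muscle. *Itgb5* in SC+ muscle was at 9.55 and 9.75 in sham, 8.67 and 8.97 at day 1, 10.25 and 10.18 at day 3, 9.44 and 10.19 at day 5 and 9.40 and 9.75 at day 7. The 2 SC- sham pools differed by about 1 unit, and no *Itgb5* call was made against sham. Without SC- sham replicate 2 it passed as higher in SC- on days 3, 5 and 7 (0.96, 1.02 and 1.30), and without replicate 1 as lower on day 1 (-1.19). *Itgb8*, also a partner of alpha V, was low and had no call.

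Among the laminin chains *Lamc1* rose, *Lama2*, *Lamb2* and *Lama3* fell, and *Lamb1* and *Lama4* did both on different days. The other laminin chains had no call against sham. *Lamb1*, the beta 1 chain, fell early in SC+ and rose later in both treatments. In SC- muscle it was at 8.42 and 7.03 in sham, 6.36 and 8.37 at day 1, 9.84 and 9.10 at day 3, 11.48 and 11.01 at day 5 and 12.38 and 12.07 at day 7. *Lamb1* in SC+ muscle was at 8.31 and 9.33 in sham, 6.70 and 6.39 at day 1, 9.45 and 9.29 at day 3, 10.69 and 11.17 at day 5 and 11.56 and 11.88 at day 7. Both SC+ day 1 arrays were below both sham arrays, whereas the SC- day 1 arrays were 2 units apart. The log2 fold change was -0.36 ± 0.51, 1.75 ± 0.51, 3.52 ± 0.51 and 4.50 ± 0.51 in SC- and -2.27 ± 0.32, 0.54 ± 0.32, 2.11 ± 0.32 and 2.89 ± 0.32 in SC+. In SC- the values of days 3, 5 and 7 passed (adjusted p = 0.0188, 3.6e-05 and 2.7e-06), and in SC+ those of days 1, 5 and 7 (5.4e-04, 0.001 and 2.5e-04). The SC- day 3 call was lost without SC- day 3 replicate 1 or SC- sham replicate 2 (1.06 to 1.38), and without SC+ sham replicate 2 day 3 also passed in SC+ (1.05).

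*Lama4*, the alpha chain of vascular and developing basement membranes, ran in the same order. It rose on days 5 and 7 by 1.56 ± 0.28 and 2.18 ± 0.28 in SC- and 1.37 ± 0.26 and 1.66 ± 0.26 in SC+, after a fall in SC+ on day 1 (-1.002 ± 0.26). The SC+ day 1 call was lost without SC+ day 1 replicate 1 or 2 or SC+ sham replicate 2 (-0.75 to -1.01) and that of day 5 without SC+ day 5 replicate 2 (1.08). *Lamc1*, the gamma chain of most laminins, rose on every day, by 1.26 ± 0.31, 1.27 ± 0.31, 1.33 ± 0.31 and 1.31 ± 0.31 in SC- and 1.15 ± 0.32, 1.10 ± 0.32, 1.63 ± 0.32 and 1.94 ± 0.32 in SC+. Its SC- calls were lost on day 1 without SC- day 1 replicate 1 or SC- sham replicate 2 (1.11 to 1.19), on day 3 without SC- day 3 replicate 1 (1.05) and on day 7 without SC- day 7 replicate 1 (1.08), and its SC+ calls on day 1 without SC+ day 1 replicate 2 or SC+ sham replicate 1 (0.65 to 0.98) and on day 3 without SC+ day 3 replicate 2 or SC+ sham replicate 1 (0.87 to 0.93).

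*Lama2*, the chain of the mature fibre's basement membrane that is mutated in merosin-deficient muscular dystrophy, fell. *Lama2* in SC- muscle was at 10.49 and 10.36 in sham, 9.27 and 9.79 at day 1, 8.98 and 8.89 at day 3, 9.30 and 9.25 at day 5 and 9.34 and 9.83 at day 7. *Lama2* in SC+ muscle was at 9.67 and 10.21 in sham, 8.51 and 9.09 at day 1, 8.42 and 8.52 at day 3, 9.55 and 9.94 at day 5 and 10.65 and 10.41 at day 7. The SC- MOV arrays were all below the SC- sham pair, and in SC+ those of days 1 and 3 were below theirs. The log2 fold change was -0.90 ± 0.27, -1.49 ± 0.27, -1.15 ± 0.27 and -0.84 ± 0.27 in SC- (adjusted p = 0.0315, 4.4e-04, 0.00287 and 0.0239) and -1.14 ± 0.27, -1.47 ± 0.27, -0.20 ± 0.27 and 0.59 ± 0.27 in SC+ (adjusted p = 0.0131 and 0.0022 on days 1 and 3). Calls were lost in SC- on day 1 without SC- day 1 replicate 1 or SC- sham replicate 1 or 2 (-0.64 to -0.96) and on day 7 without SC- day 7 replicate 1 or SC- sham replicate 1 or 2 (-0.59 to -0.91), and in SC+ on day 1 without SC+ day 1 replicate 1 or SC+ sham replicate 2 (-0.85 to -0.87).

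*Lamb2*, the beta chain enriched at the neuromuscular junction, fell alongside it. In SC- muscle it was at 10.20 and 10.57 in sham, 8.72 and 9.33 at day 1, 9.40 and 9.42 at day 3, 9.67 and 9.25 at day 5 and 9.58 and 9.47 at day 7. *Lamb2* in SC+ muscle was at 10.39 and 10.08 in sham, 8.94 and 9.37 at day 1, 8.96 and 8.80 at day 3, 9.66 and 9.41 at day 5 and 9.93 and 9.82 at day 7. All MOV arrays were below the sham arrays of their treatment. The fold change was -1.36 ± 0.25, -0.98 ± 0.25, -0.93 ± 0.25 and -0.86 ± 0.25 in SC-, all of which passed (adjusted p from 0.00112 to 0.0141), and -1.08 ± 0.24, -1.36 ± 0.24, -0.70 ± 0.24 and -0.35 ± 0.24 in SC+, of which days 1 and 3 passed (adjusted p = 0.00781 and 0.0014). Calls were lost in SC- on day 3 without SC- day 3 replicate 1 or SC- sham replicate 2 (-0.79 to -0.97), on day 5 without SC- day 5 replicate 2 or SC- sham replicate 2 (-0.72 to -0.75) and on day 7 without SC- day 7 replicate 2 or SC- sham replicate 2 (-0.68 to -0.81), and in SC+ on day 1 without SC+ day 1 replicate 1 or SC+ sham replicate 1 (-0.86 to -0.92). *Lama3*, an epithelial chain, fell in SC- on day 5 (-0.89 ± 0.30), a call lost without SC- day 5 replicate 1 or SC- sham replicate 1 (-0.62 to -0.70). *Lama1*, *Lama5* and *Lamb3* were low and had no call against sham, and *Lamc3* had none.

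Fibroblast and myofibre markers moved beside the laminin chains. The log2 of the summed level of 8 fibroblast markers (*Col1a1* and *Dcn* among them) was 17.82 to 18.12 in sham, 16.64 to 18.07 at day 1, 18.84 to 19.05 at day 3, 19.95 to 20.05 at day 5 and 20.61 to 20.70 at day 7 in SC-. In SC+ it was 17.18 to 18.24 in sham, 16.26 to 16.66 at day 1, 18.28 to 18.72 at day 3, 19.50 to 19.97 at day 5 and 20.11 to 20.31 at day 7. None of the 8 rose and 1 fell at day 1 in SC-, none rose and 6 fell in SC+, and 7 rose at day 7 in both. Myofibre markers (15 genes) fell for 2, 8, 10 and 8 genes in SC- and for 5, 8, 7 and 4 in SC+. The part of either in the laminin values was not tested.

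**Figure D3:**
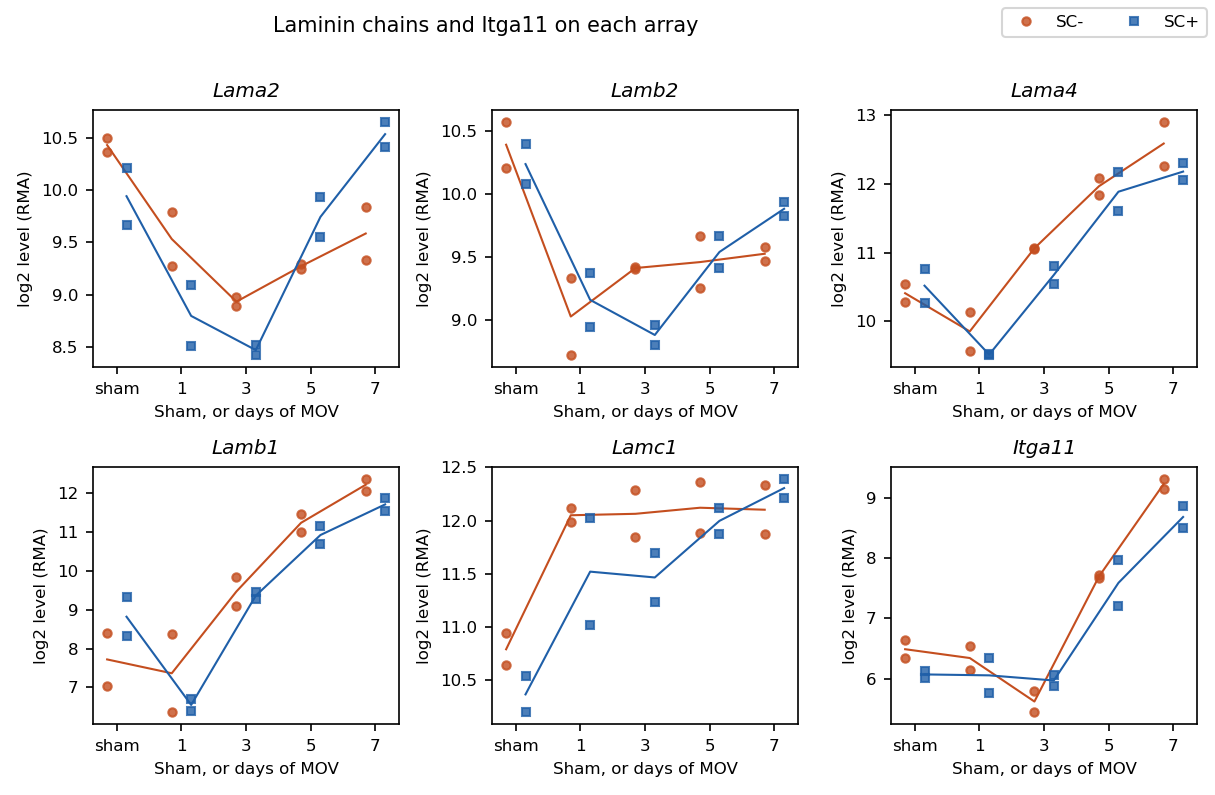
Log2 level (RMA) of 5 laminin chains and of *Itga11* on each array, in sham muscle and after 1, 3, 5 and 7 days of MOV. Circles are SC- pools and squares SC+ pools, with lines through the mean of each pair. *Lamb1* reached 12.38 and 12.07 in SC- and 11.56 and 11.88 in SC+ at day 7, while *Lama2* was lowest at day 3.

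Genes that work with these chains were read as lists, whose counts and medians stand beside the shares and medians of all genes given above for each day. Of 24 adaptors of the integrin tail and focal adhesion 8, 12, 13 and 14 rose and 2, 2, 3 and 2 fell in SC- on days 1, 3, 5 and 7, and 8, 11, 12 and 11 rose and 2 fell each day in SC+. The list's median was 0.61, 0.83, 1.33 and 1.10 in SC- and 0.44, 0.71, 0.83 and 0.59 in SC+. *Flnc*, the filamin of muscle fibres, rose by 4.69 at day 1 and 2.37 at day 3 in SC-, and by 5.11 and 2.51 in SC+. *Flna*, the filamin of most other cells, rose by 4.97 at day 7 in SC- and 3.72 in SC+. *Vcl* (vinculin) rose by 2.17 at day 1 in SC- and 2.17 in SC+, and *Actn1*, the alpha-actinin of non-muscle cells, by 4.19 and 3.09 at day 7.

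Basement membrane partners (15 genes) rose late, 0, 1, 7 and 8 in SC- and 0, 1, 5 and 7 in SC+. The list's median was -0.12, 0.16, 0.72 and 0.97 in SC- and -0.17, -0.14, 0.32 and 0.61 in SC+. The nidogens *Nid1* and *Nid2*, which link laminin to collagen IV, rose at day 7 by 2.22 and 2.67 in SC- and by 1.94 and 1.79 in SC+. *Nid1* fell at day 1 in SC+ (-2.17) and had -0.77 in SC-. *Col18a1* rose by 3.35 in SC- and 1.92 in SC+ at day 7, and *Col15a1* by 1.66 and 1.33. Both encode basement membrane collagens.

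The dystroglycan complex is the other laminin receptor of the fibre. Of its 15 genes 4, 5, 8 and 10 fell and 2, 1, 1 and 1 rose in SC- on days 1, 3, 5 and 7, and 5, 5, 4 and 2 fell and 2, 1, 1 and 2 rose in SC+. Their median fold change was -0.34, -0.31, -0.81 and -1.14 in SC- and -0.42, -0.49, -0.33 and -0.21 in SC+. *Sgca* (alpha-sarcoglycan) fell at day 3, with log2 fold changes of -2.40 in SC- and -2.37 in SC+, and so did *Nos1*, the nitric oxide synthase bound to the complex (-2.48 and -2.87). *Sspn* (sarcospan) fell at day 1 (-2.34 in SC- and -2.20 in SC+). *Sntb1*, a syntrophin, rose at day 1 by 1.39 and 1.79.

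Counter-receptors of integrins on other cells (11 genes) rose for 0, 3, 4 and 4 genes in SC- and 1, 2, 3 and 4 in SC+. The list's median was -0.36, 0.01, -0.06 and -0.02 in SC- and -0.30, -0.17, 0.05 and -0.10 in SC+. *Vcam1*, the ligand of alpha 4 beta 1, rose at day 7 by 3.26 in SC- and 2.003 in SC+, and *Thy1* by 3.27 and 2.21. *F11r* rose by 1.53 and 1.36 at day 7, and *Jam2* fell at day 1 (-1.44 in SC- and -1.23 in SC+). Both are junctional adhesion molecules. Of 9 other laminin receptors and tetraspanins 3, 6, 7 and 6 rose in SC- and 3, 5, 7 and 6 in SC+. The list's median was 0.75, 1.22, 1.66 and 1.79 in SC- and 0.77, 1.07, 1.21 and 1.28 in SC+. The tetraspanin *Cd63* rose by 3.32 in SC- and 3.67 in SC+ at day 3. At day 7 *Cd9* rose by 1.81 and 1.61, *Cd81* by 1.43 and 1.47, and the syndecan *Sdc1* by 2.75 and 1.28.

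SC- muscle was also set against SC+ muscle at each time point, at the unadjusted p under 0.05 that the study's methods use for pairs of 2 pools. In sham 2 of the 34 genes were higher and 2 lower in SC-, beside 2.55% and 3.02% of all genes. At day 1 there were 1 higher and 2 lower (2.94% and 3.05% of all genes), and at day 3 0 higher and 3 lower (2.79% and 2.66%). At day 5 there were 5 higher and 3 lower (4.47% and 4.73%), and at day 7 5 higher and 4 lower (6.2% and 5.91%). After adjustment 1 of the 34 remained, *Itgb6* at day 7, beside 0%, 0%, 0.0308%, 0.00513% and 0.287% of all genes in sham and on days 1, 3, 5 and 7. The differences that follow therefore passed without adjustment only, unless said otherwise.

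At day 7 *Itgb6* was lower in SC- (difference -1.29 ± 0.24, adjusted p = 0.0257), with both SC- arrays (9.93 and 9.96) below both SC+ arrays (11.14 and 11.33). After adjustment this call was lost without any one of the 4 arrays (adjusted p from 0.114 to 0.285, differences of -1.20 to -1.39). The day 5 difference had the same sign (-0.86 ± 0.24, adjusted p = 0.286), and at the unadjusted threshold both held without any one array. In sham *Itgb6* was higher in SC- by 0.54 ± 0.24, lost without SC- sham replicate 1 or 2 or SC+ sham replicate 2 (0.19 to 0.58) and 0.89 without SC+ sham replicate 1.

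*Itgam* changed sides during MOV. At day 1 it was lower in SC- (difference -1.47 ± 0.54, 11.93 and 11.18 in SC-, 13.48 and 12.57 in SC+), a difference lost without SC- day 1 replicate 2 or SC+ day 1 replicate 1 (-1.01 to -1.09). It was higher in SC- at day 5 by 1.43 ± 0.54 and at day 7 by 2.24 ± 0.54 (adjusted p = 0.4 and 0.0782), and the day 5 difference was lost without SC- day 5 replicate 1 or SC+ day 5 replicate 1 (1.16 to 1.42). *Itgb2* was higher by 1.32 ± 0.39 at day 5 and 1.67 ± 0.39 at day 7 (adjusted p = 0.299 and 0.0698), and the day 5 difference was lost without SC- day 5 replicate 1 or SC+ day 5 replicate 1 (0.98 to 0.99). In sham the *Itgam* difference depended on the SC+ pool: it was -1.22 without SC+ sham replicate 1 and 1.12 without replicate 2.

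Neutrophil markers were lower in SC- at day 1 for 6 of 7 genes and higher at day 7 for 4. Macrophage markers were higher in SC- for 5 of 12 genes at day 5 and for 3 at day 7. Their summed levels are given above by group, and their part in these differences was not tested. *Itgal* was lower in SC- at day 1 (-0.69 ± 0.31) and at day 3 (-1.12 ± 0.31), and higher at day 5 by 0.96 ± 0.31 (adjusted p = 0.815, 0.626 and 0.331). The day 1 value was lost without SC- day 1 replicate 2 or SC+ day 1 replicate 2 (-0.24 to -0.36) and was -1.14 without SC- day 1 replicate 1, and the day 5 value was lost without SC- day 5 replicate 1 (0.67).

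*Itga6* was higher in SC- at day 5 by 1.04 ± 0.29 and at day 7 by 0.69 ± 0.29 (adjusted p = 0.286 and 0.342), lost without SC- day 5 replicate 2 (0.68) and without SC- day 7 replicate 1 or 2 or SC+ day 7 replicate 2 (0.55 to 0.73). Endothelial markers were higher in SC- for 6 of 9 genes at day 5 and 3 at day 7, with summed levels of 14.02 to 14.18 and 13.75 to 14.25 in SC- against 13.09 to 13.63 and 13.37 to 13.43 in SC+, and their part was not tested. Alpha V (*Itgav*) was higher in SC- at day 7 by 0.61 ± 0.26. Its beta chains differed in sign: *Itgb3* was higher at day 5 by 0.72 ± 0.26 and *Itgb5* at day 7 by 1.02 ± 0.31, *Itgb6* was lower on both days as given above, and *Itgb1* (0.10 and 0.02) and *Itgb8* (0.19 and 0.16) passed on neither. *Itgb3* was lost without SC- day 5 replicate 2 or SC+ day 5 replicate 2 (0.55 to 0.67) and *Itgav* without SC- day 7 replicate 1 or 2 or SC+ day 7 replicate 1 (0.48 to 0.61), and *Itgb5* held (adjusted p = 0.158).

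*Lama2* also changed sides. It was higher in SC- at day 1 by 0.73 ± 0.27 (9.27 and 9.79 in SC-, 8.51 and 9.09 in SC+) and lower at day 7 (-0.95 ± 0.27) (9.34 and 9.83 in SC-, 10.65 and 10.41 in SC+, adjusted p = 0.138). The day 1 difference was lost without SC- day 1 replicate 2 or SC+ day 1 replicate 1 (0.44 to 0.47), and that of day 7 held. *Itga7*, its receptor chain, was lower in SC- at day 7 (-0.64 ± 0.29), lost without SC- day 7 replicate 1 or 2 or SC+ day 7 replicate 2 (-0.47 to -0.74). Of the 15 dystroglycan complex genes 5 were lower in SC- at day 5 and 9 at day 7, with none higher, and of 15 myofibre markers 7 and 8 were lower.

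The rest of the differences were in low genes and in *Lamb1*, *Itga2b* and *Lama3*, which were not low. In sham *Itgad* was lower in SC- (difference -0.95 ± 0.29), lost without SC- sham replicate 1 or SC+ sham replicate 1 (-0.34 to -0.75) and -1.56 without SC+ sham replicate 2, and *Itgae* was higher by 0.78 ± 0.34, lost without SC- sham replicate 2 or SC+ sham replicate 1 or 2 (0.50 to 0.78). *Lamb1* in sham was lower (-1.10 ± 0.51) although the pools overlapped, lost without SC- sham replicate 2 or SC+ sham replicate 2 (-0.41 to -0.59) and -1.79 without SC- sham replicate 1. At day 3 *Itga2b* was lower (-0.78 ± 0.24), lost without SC+ day 3 replicate 1 (-0.53), and so was *Itgax* (-0.60 ± 0.28), lost without SC- day 3 replicate 2 or SC+ day 3 replicate 1 or 2 (-0.30 to -0.66). At day 5 *Itgb4* and *Lama3* were lower (-0.68 ± 0.28 and -0.73 ± 0.30), lost without SC- day 5 replicate 2 or SC+ day 5 replicate 1 or 2 (-0.58 to -0.73) and without SC- day 5 replicate 1 or SC+ day 5 replicate 1 (-0.54 to -0.55), and at day 7 *Lama1* was lower (-0.74 ± 0.35), lost without SC- day 7 replicate 1 or 2 or SC+ day 7 replicate 1 (-0.53 to -0.76).

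**Figure D4:**
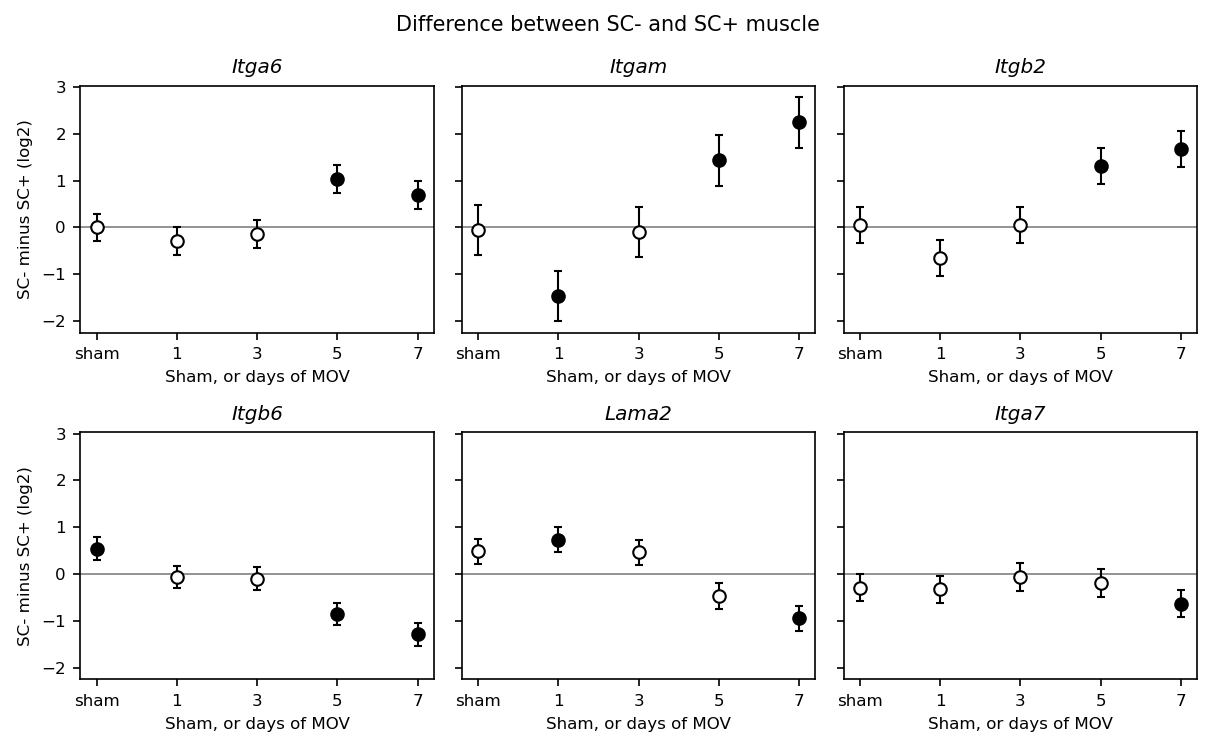
SC- minus SC+ difference in log2 level of 6 genes in sham muscle and at each MOV day, with bars of 1 SE. Filled points passed an unadjusted p under 0.05, and only *Itgb6* at day 7 (-1.29) passed after adjustment.

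Whether the response to MOV differed between SC- and SC+ was tested directly, as the difference of the 2 fold changes. No gene of the 34 passed after adjustment on any day, nor did any of the 19505 genes (0% on each day). At an unadjusted p under 0.05, the log2 fold change of 2, 0, 4 and 4 of the 34 was higher in SC- than in SC+ on days 1, 3, 5 and 7 (2.42%, 2.08%, 3.9% and 4.46% of all genes). That of 0, 3, 2 and 2 was lower in SC- (2.51%, 2.12%, 3.91% and 4.82%). A higher value can be a larger rise or a smaller fall, and a lower value the reverse. The day 7 differences were -1.83 ± 0.34 for *Itgb6*, 2.30 ± 0.76 for *Itgam*, -1.43 ± 0.38 for *Lama2*, 1.61 ± 0.55 for *Itgb2*, 1.61 ± 0.73 for *Lamb1* and 0.79 ± 0.37 for *Itgb3*. Their adjusted p values were 0.124, 0.36, 0.258, 0.361, 0.51 and 0.533. For *Lamb1* and *Itgb3* the gap between treatments was wider in sham than at day 7. The *Lamb1* means were 7.72 in SC- and 8.82 in SC+ in sham, and 12.22 and 11.72 at day 7. Those of *Itgb3* were 6.88 and 7.38 in sham, and 7.99 and 7.69 at day 7. Without SC+ sham replicate 1, *Itgam* (3.46) and *Itgb6* (-2.19) passed at day 7, beside 127 of all genes (0.651%), where 0 passed with that array kept. Calls made in one treatment and not in the other are therefore not shown to differ.

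Over all time points together, 2 of the 34 genes were higher and 4 lower in SC- at an unadjusted p under 0.05 (4.41% and 4.29% of all genes), and none passed after adjustment, beside 0.041% of all genes. *Itgad* was lower (-0.42 ± 0.13) and *Itgb5* higher by 0.39 ± 0.15 (adjusted p = 0.352 and 0.427), and both held without each array. *Lamc1* was higher by 0.29 ± 0.14, and *Itgb6*, *Itga7* and *Lamc3* were lower (-0.35 ± 0.17, -0.30 ± 0.13 and -0.28 ± 0.12). Each of these 4 was lost without at least 3 single arrays, at 0.21 to 0.31 for *Lamc1*, -0.27 to -0.37 for *Itgb6*, -0.23 to -0.26 for *Itga7* and -0.20 to -0.24 for *Lamc3*.

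**Figure D5:**
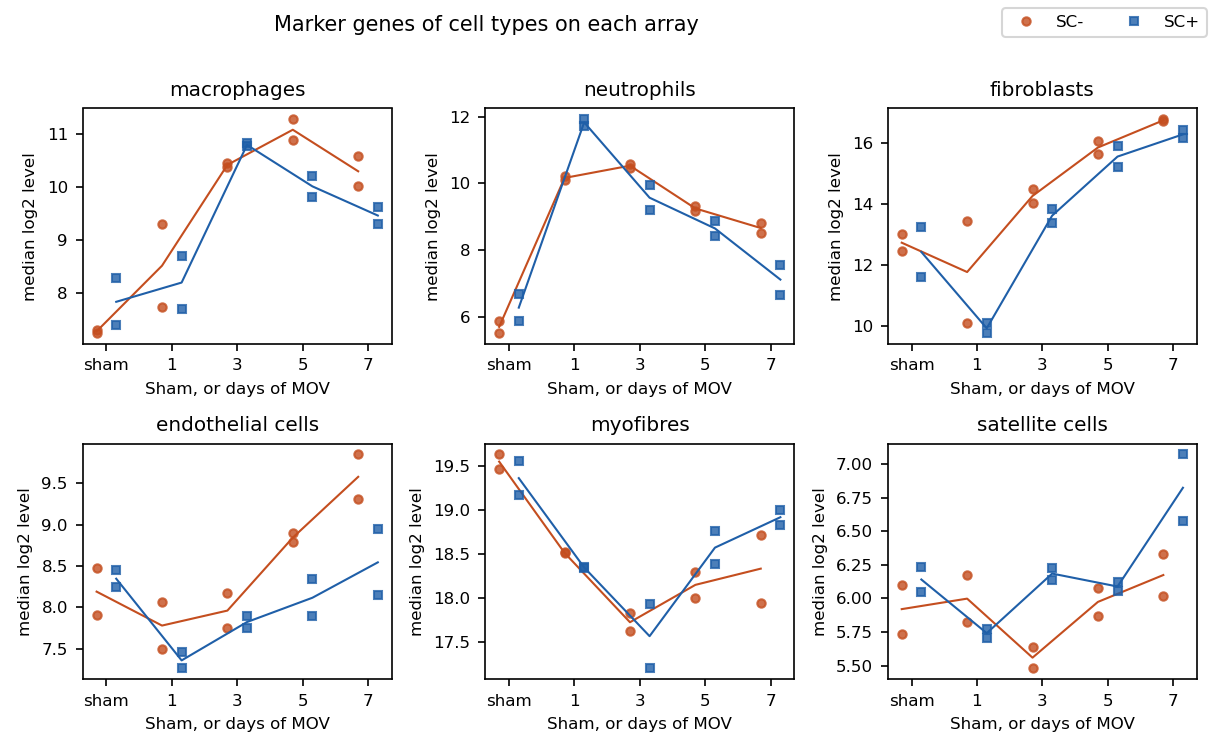
Median log2 level of marker genes of 6 cell types on each array, in sham muscle and after 1, 3, 5 and 7 days of MOV. Circles are SC- pools and squares SC+ pools, with lines through the mean of each pair. The SC- day 1 fibroblast medians were 10.09 and 13.44.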

How the data were processed

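Plantaris RNA was hybridised to Affymetrix arrays by the authors, who deposited 1 table of log2 values made by RMA (background correction, quantile normalization and summary of probes), per the submitters' processing notes and the study's methods. The values spanned 2.22 to 19.93, wider than RMA alone usually gives, and any further step is not given in the sources used here, so the sizes of fold changes hold on the deposited scale. No genome build is named either, and the precision is limited by the number of arrays. Of 28846 probe sets 19572 had 1 gene symbol and 9274 were not used. For 55 genes with several probe sets the one with the highest mean was kept, which left 19505 genes. Groups were taken from the sample titles.

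Group means were fitted with limma 3.58.1 in R 4.3.3 (lmFit and eBayes) across all genes. MOV in SC+ was fitted on the 10 SC+ arrays and everything else on all 20, with a threshold of 0.05, and the additive model had time point as a term. The fit was tested on simulated data. Because each group has 2 pools, p-values measure the spread between pools.

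The genes and the lists were chosen with earlier results of these data known. Values of every array are given, by rule, for the 3 largest called rises and falls per SC+ day whose MOV and sham arrays do not overlap, the 2 smallest p values under 0.05 per SC- against SC+ comparison and the 2 smallest in the additive model. Pathway lists name up to 4 genes, those with the smallest p in SC+. The alternatives were a second quantile normalization, genes with a mean under 6 left out, a prior variance that follows the level, a replicate block, the mean of probe sets, other sets of arrays in the fit, and leaving out each array.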

Additional observations from a re-analysis of the deposited data

How the results depend on the processing

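Over the alternatives that kept all arrays, no call of the 34 genes changed direction. Of 138 calls 131 held after a second quantile normalization, 135 with the replicate block, and 138 with a prior variance that follows the level and with the mean of probe sets. Of 130 calls 127 held with low genes left out, of 27 calls 23 with only the 4 arrays compared, of 61 calls 60 in SC- arrays alone, and of 44 calls 44 with all 20 arrays in 1 fit. Lower in SC+ at day 5 was 1 after quantile normalization and with low genes left out, and at day 7 it was 0 in both. For SC- against SC+ in sham, the genes higher were 1 with quantile normalization, with low genes left out and with the 4 arrays, and the genes lower were 0 with low genes left out and with the 4 arrays. Higher at day 1 was 2 with the 4 arrays. Higher at day 3 was 1 with low genes left out and with the prior variance that follows the level, and 2 with the 4 arrays. Over all time points the genes higher were 1 with quantile normalization and with low genes left out, and the genes lower were 2 with low genes left out. The cause was not tested.

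The replicate numbers were not shown to pair the pools: over 45 pairs of groups the deviations of same-numbered arrays correlated between -0.15 and 0.22, with 12 pairs over 0.1. With the replicate block the genes lower in sham were 1 and the genes higher over all time points were 1, and no other count moved by over 1.5 times.

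Leaving out each array in turn, 472 of 648 refits of a call kept it, 176 lost it and 0 reversed it. On days 1, 3, 5 and 7 the genes higher against sham ranged from 5 to 6, 6 to 9, 13 to 16 and 10 to 14 in SC- and from 5 to 7, 5 to 10, 7 to 9 and 6 to 9 in SC+. The genes lower ranged from 1 to 2, 1 to 2, 3 to 3 and 1 to 3 in SC- and from 1 to 3, 2 to 3, 0 to 1 and 0 to 1 in SC+. For SC- against SC+ the genes higher ranged from 0 to 3 in sham, 0 to 3 at day 1, 0 to 2 at day 3, 2 to 7 at day 5 and 3 to 5 at day 7, and the genes lower from 1 to 5 in sham, 1 to 4 at day 1, 1 to 4 at day 3, 1 to 2 at day 5 and 2 to 3 at day 7. Over all time points they ranged from 1 to 4 higher and from 1 to 4 lower. Genes whose response differed after adjustment stayed at 0 on days 1, 3 and 5 and ranged from 0 to 2 at day 7. A group left with 1 array was assumed to vary like the others. With 2 pools a group, and 9 of the 34 genes low, small differences could not be seen.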
